A study of Homo sapiens with 6 samples.

Results

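Integrin and laminin subunits were examined in PC9 cells that survived erlotinib and in the parental cells they came from. Members were the probe sets that the array annotation assigned to exactly 1 gene whose symbol was that of a numbered integrin α or β subunit, of ITGAV, or of a laminin α, β or γ chain. This gave 83 of the 54613 probe sets tested, 60 of integrin and 23 of laminin genes, and 29 of the 19775 genes tested. The 29 genes comprised 12 integrin α, 7 integrin β and 10 laminin genes, and 21 of them had more than 1 probe set. ITGB6 and LAMA3 had no probe set assigned to 1 gene alone and were not analysed here.

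PC9 is an EGFR-mutant lung adenocarcinoma cell line, and erlotinib is an inhibitor of the EGFR kinase. The series asked which genes differ in expression between drug-tolerant persisters (DTPs), the small subpopulation of cells left after prolonged drug exposure, and parental cells. All 6 cultures carried a GFP vector. The 3 parental samples received DMSO, and the 3 DTP samples received 2 μM erlotinib for 9 days, started at 80% confluency and with fresh drug added during the treatment. Per the labels, parental cells were collected at 100% confluency on day 3 and DTPs on day 10, whereas the design text gives 9 days of DMSO or erlotinib, so drug, time in culture and cell density cannot be told apart. Nor can selection of surviving cells be told apart from a change within cells, or a smaller share of cells expressing a gene from less RNA per cell. Per the methods, replicates across the work were biological and came from independent experiments, while the labels do not say which experiment each array came from, so the p-values reflect the spread among these 6 samples.

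Integrins are heterodimers of an α and a β subunit that span the plasma membrane and tie the matrix outside the cell to the cytoskeleton inside it. The pairing decides the ligand: some α subunits bind laminin, some collagen, and others, with ITGAV as the most widely shared, bind the RGD tripeptide of fibronectin, vitronectin or latent TGF-β. Laminins are trimers of an α, a β and a γ chain that form the sheet of the basement membrane, on which lung epithelium rests through integrins α3β1 and α6β4.

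Expression was measured on Affymetrix Hgu133plus2 arrays and is given as log2 values, on which a difference of 1 is a doubling. Each gene was read from its brightest probe set, and a gene was called higher or lower in DTPs where limma's adjusted p was below 0.05 and the difference exceeded 1.5-fold. The array medians lay between 7.27 and 7.32, and arrays correlated at 0.997 to 0.998 within a group and at 0.970 to 0.975 across groups. The 3′ minus 5′ difference of the β-actin control was 0.14 to 0.19 in parental arrays and 0.03 to 0.08 in DTP arrays, and that of GAPDH was −0.17 to −0.14 and −0.18 to −0.17, and their part in the results was not tested. Of 12 epithelial markers, 11 had a group mean above the median of all probe sets, the exception being the lung lineage factor NKX2-1. Their mean level was 11.73 to 11.77 in parental arrays and 11.80 to 11.85 in DTP arrays, with KRT7 called higher and CLDN7 and ESRP1 called lower.

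ITGA3, ITGA6 and ITGB4, 3 of the 4 subunits grouped as laminin-binding, were lower in DTPs. ITGAV and 2 of its β partners, ITGB8 and ITGB3, were higher, whereas another partner, ITGB5, was lower. Among laminins, LAMC1 was higher and LAMA4 lower. In all, 5 genes were called higher (ITGAV, ITGB2, ITGB3, ITGB8 and LAMC1) and 5 lower (ITGA3, ITGA6, ITGB4, ITGB5 and LAMA4), with adjusted p from 1.4e-10 to 1.5e-05. With arrays centred on hybridization spike-ins, 7 were higher and 4 lower. The 10 called members were 34.5% of the 29, beside 14.2% of all genes called in either direction, 8.08% called higher and 6.13% called lower. The median log2 fold change of the members was −0.04 and that of all genes −0.05, while the median absolute log2 fold change was 0.32 for the members and 0.17 for all genes. The groups did not overlap in 17 member genes, or 58.6%, beside 53.7% of all genes. The remaining 19 members were not called, and 7 of these met the adjusted p and missed the fold limit. Without a fold limit 17 members passed, 9 higher and 8 lower, beside 44.5% of all genes.

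**Figure D1:**
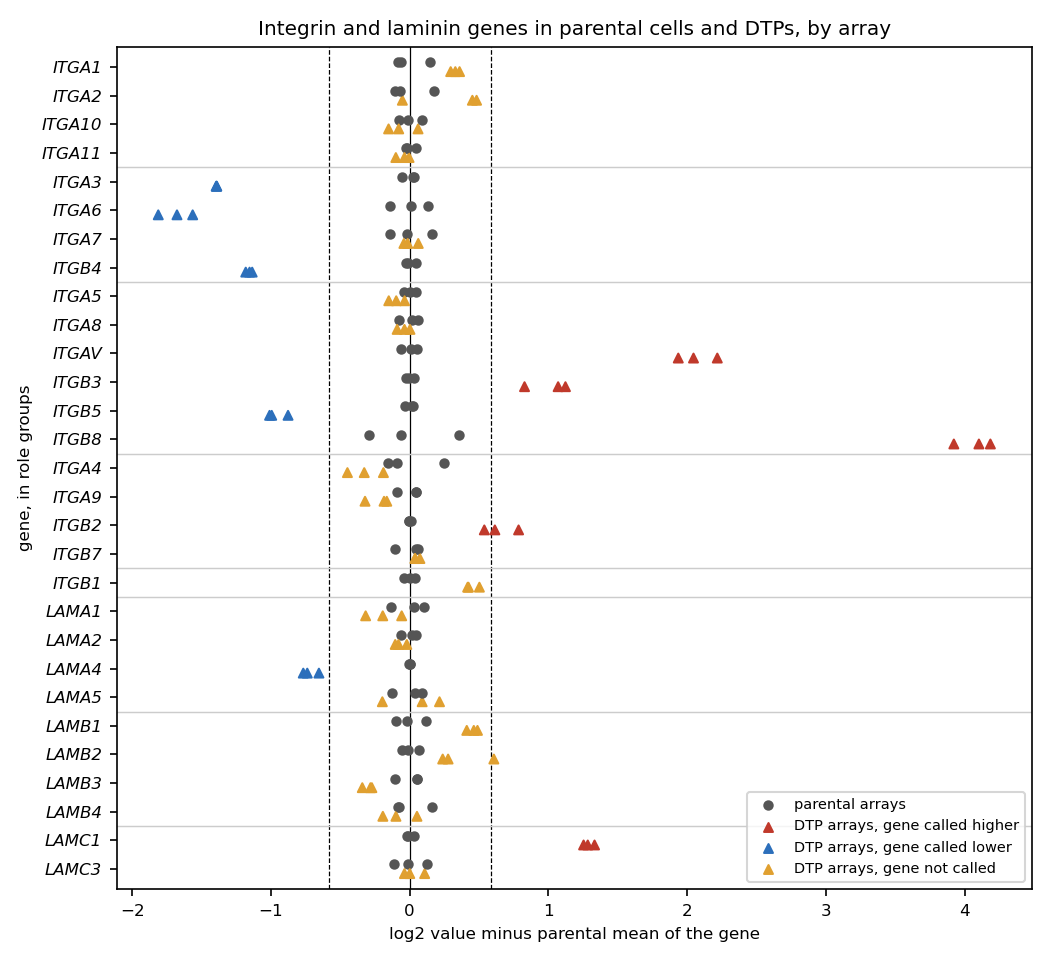
Each of the 29 genes is a line on the vertical axis, in groups by role, and the horizontal axis is the log2 value of an array minus the parental mean of that gene. Circles are the 3 parental arrays, triangles the 3 DTP arrays coloured by the call, and dashed lines mark a fold of 1.5. ITGB8 and ITGAV lie farthest to the right, with log2 fold changes of 4.07 and 2.07, and ITGA6 farthest to the left, at −1.68.

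Promoter windows are shown for 4 of the called members. These are ITGAV and ITGB8, which form the αvβ8 receptor and were both higher, and the laminin chains LAMC1, higher, and LAMA4, lower. The windows of ITGA6 and ITGB5, both lower, are not printed. Each runs from 250 bases before to 50 bases after the annotated gene start in RefSeq GRCh38.p14, and is printed 5′ to 3′ on the strand of the gene. The windows are chr2:186589806-186590105 on the plus strand for ITGAV, chr7:20330650-20330949 on the plus strand for ITGB8, chr1:183023170-183023469 on the plus strand for LAMC1 and chr6:112254518-112254817 on the minus strand for LAMA4. Capitals mark letters that match a GC box on either strand, the only one of 4 searched motifs found in these 4 windows. ITGAV has another window in RefSeq, and the first listed is printed.
ITGAV: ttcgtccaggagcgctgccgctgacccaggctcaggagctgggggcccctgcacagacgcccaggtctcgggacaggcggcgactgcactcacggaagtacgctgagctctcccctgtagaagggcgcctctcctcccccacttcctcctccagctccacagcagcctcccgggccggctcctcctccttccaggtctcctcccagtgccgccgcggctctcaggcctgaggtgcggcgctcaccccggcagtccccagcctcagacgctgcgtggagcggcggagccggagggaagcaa
ITGB8: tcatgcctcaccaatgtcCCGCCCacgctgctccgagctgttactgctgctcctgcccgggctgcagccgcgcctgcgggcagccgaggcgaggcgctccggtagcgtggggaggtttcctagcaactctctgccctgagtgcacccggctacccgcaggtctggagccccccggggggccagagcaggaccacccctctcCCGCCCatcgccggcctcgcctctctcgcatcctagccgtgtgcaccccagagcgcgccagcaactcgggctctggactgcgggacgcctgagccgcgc
LAMC1: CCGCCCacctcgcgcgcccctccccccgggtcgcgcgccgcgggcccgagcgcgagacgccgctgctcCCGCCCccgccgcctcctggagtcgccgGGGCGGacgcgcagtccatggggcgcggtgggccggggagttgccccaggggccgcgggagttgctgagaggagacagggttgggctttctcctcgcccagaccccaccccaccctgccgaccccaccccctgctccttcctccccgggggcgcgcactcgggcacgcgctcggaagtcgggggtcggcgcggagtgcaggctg
LAMA4: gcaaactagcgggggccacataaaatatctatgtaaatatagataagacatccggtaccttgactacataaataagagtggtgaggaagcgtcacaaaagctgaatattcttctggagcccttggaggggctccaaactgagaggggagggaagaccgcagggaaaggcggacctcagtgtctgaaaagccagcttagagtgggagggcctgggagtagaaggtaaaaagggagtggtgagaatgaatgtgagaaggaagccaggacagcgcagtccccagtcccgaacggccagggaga

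The GC box letters GGGCGG occurred 3 times in the LAMC1 window and 2 times in that of ITGB8, and did not occur in those of ITGAV and LAMA4. The GC content was 79.0% for LAMC1, 71.7% for ITGB8, 70.7% for ITGAV and 51.3% for LAMA4, beside a median of 58.7% over all 35116 windows. RefSeq windows were held for 21 member genes, 6 of them called. A member was counted by its first listed window, whereas shares over all windows can count a gene more than once. A GC box was in 12 of the 21 (57.1%) and in 45.0% of all windows. It was in 4 of the 6 called members: LAMC1 and ITGB8, both higher, and ITGA6 and ITGB5, both lower. The AP-1 letters TGANTCA were in 1 of the 21, ITGA5, and in 7.71% of all windows. The TEAD letters GGAATG were in 4 of the 21 (19.0%), none of them called, and in 14.0% of all windows. The TATA box letters TATAAA were in 1 of the 21, ITGA6, and in 11.5% of all windows. Both strands were searched, the motifs' letters do not contain one another, and a match describes the sequence only.

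Of the 4 laminin-binding subunits, 3 fell in DTPs and ITGA7 was not called. ITGA6 is the α subunit of α6β4 and α6β1. Its log2 values were 13.00, 12.87 and 12.73 in parental replicates 1 to 3 and 11.06, 11.19 and 11.30 in DTP replicates 1 to 3. Every DTP array lay below every parental array. The log2 fold change was −1.68 ± 0.09 (SE, n = 3 per group), 3.21-fold lower in DTPs (limma, adjusted p = 8.2e-09), and a second probe set of the gene gave −2.02.

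ITGA3, the α subunit of α3β1, read 11.25, 11.34 and 11.33 in parental arrays and 9.91 in each DTP array. The groups were far apart relative to their SDs of 0.05 and 0.002. ITGA3 fell by 1.39 ± 0.06 on the log2 scale (SE, n = 3 per group), 2.63-fold, in limma (adjusted p = 2.9e-09). It was read by 1 probe set.

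ITGB4, which pairs with ITGA6 alone and carries the long cytoplasmic tail that binds the hemidesmosome, read 10.75, 10.77 and 10.83 in parental arrays and 9.63, 9.60 and 9.65 in DTP arrays. All DTP arrays were lower than all parental arrays. ITGB4 fell by 1.16 ± 0.06 on the log2 scale (SE, n = 3 per group), 2.23-fold, in limma (adjusted p = 1.6e-08). Of its 5 probe sets, 3 were called lower and none had a positive difference. ITGA7, the laminin-binding α subunit known best from muscle, had group means of 7.79 in both groups and a log2 fold change of 0.002 ± 0.08.

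Among the RGD-binding subunits and their β partners, 3 of 6 genes rose, 1 fell and 2 were not called. ITGAV, the α subunit that pairs with ITGB3, ITGB5 and ITGB8, read 10.66, 10.61 and 10.54 in parental arrays and 12.82, 12.54 and 12.65 in DTP arrays. The lowest DTP array was above the highest parental array by more than the range within either group. ITGAV rose by 2.07 ± 0.08 on the log2 scale (SE, n = 3 per group), 4.19-fold, in limma (adjusted p = 5.7e-10). Like ITGA3, it was read by 1 probe set.

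ITGB8, the β subunit of αvβ8, a receptor for latent TGF-β, had the largest log2 fold change among the 29 members. It read 6.69, 6.27 and 6.04 in parental arrays, all below the median of all probe sets (7.29), and 10.52, 10.43 and 10.25 in DTP arrays. The groups did not overlap. The log2 fold change was 4.07 ± 0.13 (SE, n = 3 per group), 16.8-fold higher in DTPs (limma, adjusted p = 1.4e-10). This rests on 1 of 5 probe sets, since the other 4 gave log2 fold changes of 0.09 to 0.50, had both group means below that median and were not called. With the 5 averaged the value was 1.07, still called.

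ITGB3, the β subunit of αvβ3, read 8.84, 8.81 and 8.78 in parental arrays and 9.88, 9.64 and 9.93 in DTP arrays. The groups did not overlap. ITGB3 rose by 1.01 ± 0.08 on the log2 scale (SE, n = 3 per group), 2.01-fold, in limma (adjusted p = 5.5e-07). Of 7 probe sets, 3 were called higher, 5 had positive and 2 negative differences, and averaging all 7 gave 0.42, which was not called.

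ITGB5, the β subunit of the vitronectin receptor αvβ5, moved the other way. It read 12.20, 12.14 and 12.19 in parental arrays and 11.16, 11.18 and 11.30 in DTP arrays, with every DTP array below every parental one. ITGB5 fell by 0.96 ± 0.07 on the log2 scale (SE, n = 3 per group), 1.95-fold, in limma (adjusted p = 1.5e-07). Of its 4 probe sets, 3 were called lower and all 4 had negative differences. ITGA5, the α subunit of the fibronectin receptor α5β1, overlapped between groups, with 9.95, 10.00 and 10.04 in parental arrays and 9.96, 9.85 and 9.90 in DTP arrays. Its log2 fold change was −0.09 ± 0.07 (limma, adjusted p = 0.28). ITGA8, another RGD-binding α subunit, gave −0.04 ± 0.07 with both means below the median.

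ITGB1, the β subunit shared by the collagen receptors, the laminin receptors α3β1 and α6β1 and the fibronectin receptor α5β1, was not called. It read 13.43, 13.40 and 13.36 in parental arrays and 13.90, 13.82 and 13.82 in DTP arrays, without overlap. The log2 fold change was 0.45 ± 0.07, 1.36-fold, which met the adjusted p (limma, 1.0e-04) and missed the fold limit. Of its 7 probe sets, 2 were called higher, at 0.60 and 0.64.

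None of the 4 collagen-binding α subunits was called. ITGA2, the α subunit of α2β1, read 11.08, 10.80 and 10.84 in parental arrays and 11.36, 10.86 and 11.39 in DTP arrays. DTP replicate 2 lay among the parental arrays, and the log2 fold change of 0.29 ± 0.13 had an adjusted p of 0.082 in limma. ITGA1 passed the adjusted p with 0.33 ± 0.08, below the fold and with both means under the median. Its other probe sets gave −0.25, which passed the adjusted p in the opposite direction (limma, 0.023), and 0.15, which did not pass. ITGA10 gave −0.06 ± 0.08 and ITGA11 −0.05 ± 0.07.

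ITGB2, the β subunit of the leukocyte integrins, was called higher. It read 7.85, 7.85 and 7.87 in parental arrays and 8.47, 8.64 and 8.39 in DTP arrays, without overlap. ITGB2 rose by 0.65 ± 0.08 on the log2 scale (SE, n = 3 per group), 1.56-fold, in limma (adjusted p = 1.5e-05), and 2 of 3 probe sets were called. The call ended without DTP replicate 2 (0.58) and when the 3 probe sets were averaged (0.47). The 8 leukocyte markers measured held no called gene, 6 were below the median in both groups, and their mean level was 6.52 to 6.60 in parental and 6.50 to 6.63 in DTP arrays. PTPRC, which encodes the pan-leukocyte antigen CD45, read 5.32 to 5.42 in parental and 5.26 to 5.43 in DTP arrays.

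The α subunits known to pair with ITGB2 fall outside the symbol pattern, and none of the 6 integrin α subunits left out by that pattern was called. ITGAL gave −0.22 ± 0.07, ITGAM 0.16 ± 0.07, ITGAX 0.05 ± 0.07 and ITGAD −0.20 ± 0.09. Averaging its 2 probe sets gave 0.66 for ITGAM, which was then called higher. ITGAE, a partner of ITGB7, gave −0.22 ± 0.07, and ITGA2B, the platelet partner of ITGB3, −0.35 ± 0.09. Within the members, ITGA4 and ITGA9 passed the adjusted p below the fold, at −0.32 ± 0.10 and −0.22 ± 0.07, and ITGB7 gave 0.05 ± 0.07.

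**Figure D2:**
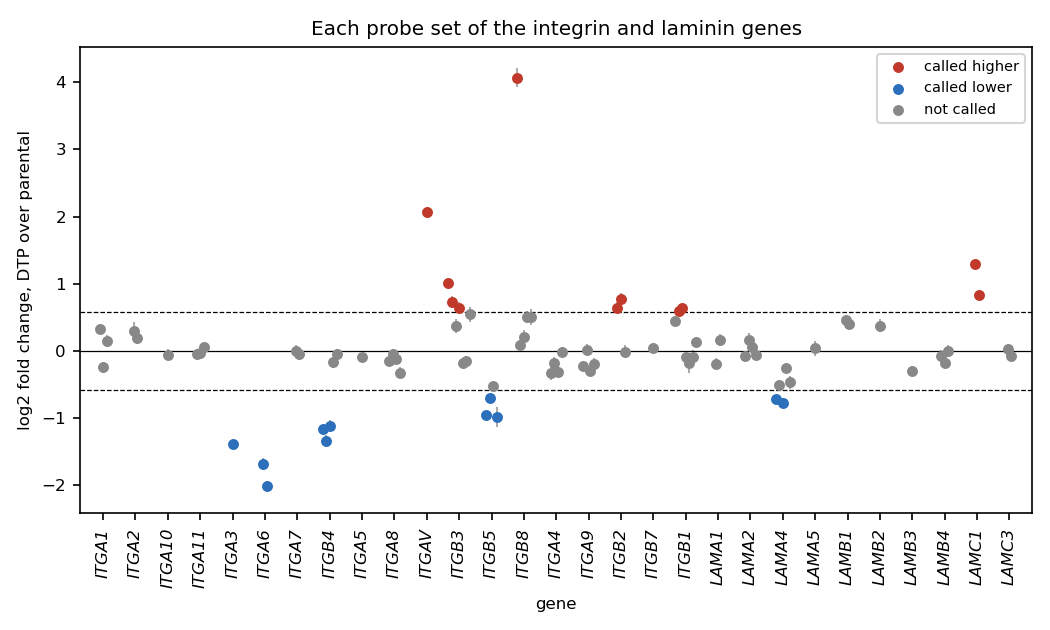
Each point is 1 of the 83 probe sets, placed by gene on the horizontal axis and by its log2 fold change, DTP over parental, on the vertical axis, with bars of 1 SE from limma and dashed lines at a fold of 1.5. Probe sets of ITGB4 and ITGB5 all lie below 0, whereas ITGB8 has 1 probe set at 4.07 and 4 between 0.09 and 0.50.

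Of the 10 laminin chains, 2 were called. LAMC1, the γ chain of most laminin trimers, read 11.29, 11.29 and 11.33 in parental arrays and 12.63, 12.59 and 12.56 in DTP arrays. The groups did not overlap. LAMC1 rose by 1.29 ± 0.06 on the log2 scale (SE, n = 3 per group), 2.44-fold, in limma (adjusted p = 5.7e-09), and both of its probe sets were called. LAMC3 gave 0.02 ± 0.08 with both means below the median.

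LAMA4, the α chain of laminins of vessels and other mesenchymal tissues, read 11.51 in each parental array and 10.74, 10.77 and 10.86 in DTP arrays. Every DTP array was lower than every parental one. LAMA4 fell by 0.72 ± 0.07 on the log2 scale (SE, n = 3 per group), 1.65-fold, in limma (adjusted p = 1.5e-06). All 5 of its probe sets had negative differences and 2 were called. The call ended when its probe sets were averaged (−0.54) or when arrays were centred on hybridization spike-ins (−0.57).

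Of 9 endothelial markers 1 was called, PECAM1, lower in DTPs by 0.69 on the log2 scale. Their mean level was 7.31 to 7.34 in parental and 7.09 to 7.20 in DTP arrays, and 4 of the 9 were below the median in both groups. Of 10 fibroblast markers 1 was called, MFAP5, higher by 0.98, and 7 were below the median in both groups. The fibroblast mean was 6.53 to 6.56 in parental and 6.57 to 6.60 in DTP arrays, and the part of either list in the laminin values was not tested.

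LAMA5, the main laminin α chain of mature epithelium, read 10.86, 11.07 and 11.02 in parental arrays and 11.07, 11.20 and 10.78 in DTP arrays. The DTP arrays spanned the parental range, and the log2 fold change was 0.04 ± 0.10 (limma, adjusted p = 0.80). LAMA1 and LAMA2, both below the median in both groups, gave −0.19 ± 0.09 and −0.07 ± 0.07. None of the 4 β chains was called. LAMB1 gave 0.45 ± 0.07 and LAMB2 0.37 ± 0.09, both past the adjusted p but below the fold. LAMB3, a β chain of epithelial basement membrane, read 11.37, 11.53 and 11.53 in parental arrays and 11.20, 11.14 and 11.21 in DTP arrays. Its groups did not overlap, and its value of −0.30 ± 0.07 met the adjusted p (limma, 0.004) and missed the fold limit. LAMB4 gave −0.08 ± 0.09.

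The calls were spread unevenly over the signal range. None of the 9 member genes with both group means below the median of all probe sets was called, and 10 of the other 20 were. Over all genes, 2.69% of the 6663 with both means below that median and 20.1% of the other 13112 were called. Over all probe sets of the members, 11 were called higher and 11 lower of 83, or 26.5%, beside 12.5% of all probe sets called in either direction, 7.56% higher and 4.93% lower. All 22 were among the 41 with a group mean at or above the median, and no gene had probe sets called in both directions. RMA values carry no detection call and differences near background are compressed, so at low signal a difference may not have been detectable.

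**Figure D3:**
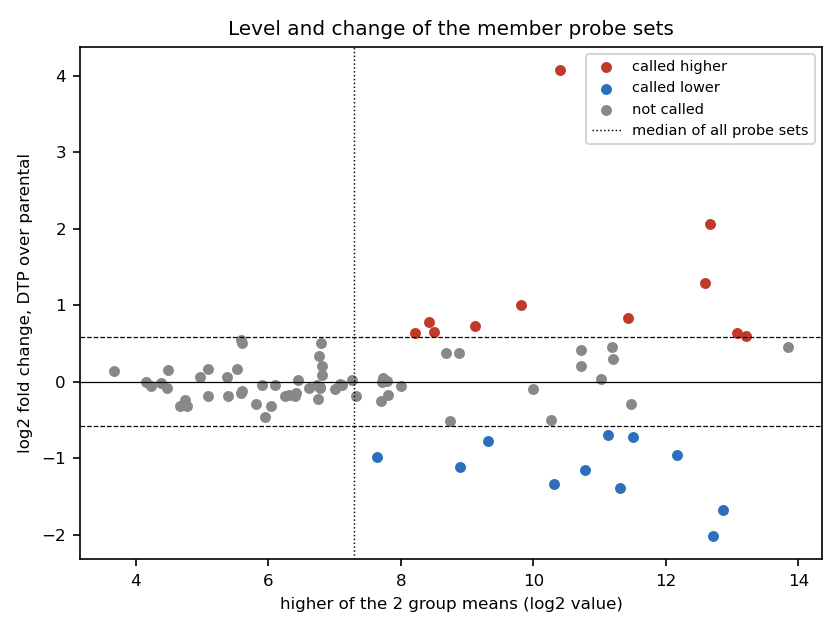
Each point is 1 of the 83 member probe sets, with the higher of its group means as a log2 value on the horizontal axis and its log2 fold change, DTP over parental, on the vertical axis. The dotted line is the median of all probe sets (7.29) and dashed lines mark a fold of 1.5. All 22 called probe sets lie to the right of the dotted line, and the 42 to its left are uncalled.

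Genes that act with integrins and laminins were taken as 4 lists. Over all genes, 14.2% were called, 8.08% higher and 6.13% lower, and the median log2 fold change was −0.05. Of all genes with a group mean at or above the median of all probe sets, 20.1% were called. Of 27 integrin ligands other than laminins, 13 rose, none fell and 14 were not called (48.1% called, median log2 fold change 0.57), with VTN not analysed here. FN1, which encodes fibronectin, read 9.83, 9.67 and 9.65 in parental arrays and 14.59, 14.62 and 14.58 in DTP arrays. It rose by 4.88 ± 0.07 on the log2 scale, 29.4-fold (limma, adjusted p = 2.0e-13). EDIL3, an RGD-bearing ligand of αv integrins, rose by 4.47 ± 0.12, the adhesion molecule L1CAM by 4.06 ± 0.18 and the matricellular protein CCN2 by 3.50 ± 0.10. Averaging all probe sets of a gene gave 2.50 for EDIL3 and 2.33 for L1CAM, both still called.

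Of 23 hemidesmosome, basement membrane and other laminin partner genes, 9 rose, none fell and 14 were not called. The share called was 39.1%, beside 14.2% of all genes, and the median log2 fold change was 0.46. In this list 3 genes had both means below the median of all probe sets. Of all genes with a group mean at or above it, 20.1% were called. COL17A1, DAG1 and RPSA were not analysed here. The 4 with the largest changes were 3 chains of the basement membrane collagen type IV and an epithelial basement membrane protein. Among hemidesmosome genes, DST was called higher, by 0.85 ± 0.07 on the log2 scale, and PLEC gave −0.21 ± 0.12, not called. CD151 gave 0.53 ± 0.08, past the adjusted p but below the fold. COL7A1, in the same list, was called higher, by 1.20 ± 0.10. COL4A4 rose by 3.21 ± 0.11, COL4A6 by 2.20 ± 0.08 and COL4A5 by 2.11 ± 0.08 on the log2 scale. Of the other type IV chains, COL4A3 rose by 1.23 ± 0.10, whereas COL4A1 (−0.38 ± 0.07) and COL4A2 (0.46 ± 0.09) were not called. FRAS1, which encodes the basement membrane protein, rose by 2.19 ± 0.08. With all probe sets averaged, COL4A4 gave 2.48, COL4A6 gave 1.20 and FRAS1 gave 0.49, which was not called.

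Of 32 focal adhesion and integrin adaptor genes, 11 rose, 1 fell and 20 were not called. The share called was 37.5%, beside 14.2% of all genes, and the median log2 fold change was 0.31. In this list 1 gene had both means below the median of all probe sets. Of all genes with a group mean at or above it, 20.1% were called. NEDD9, a docking protein of focal adhesions, rose by 2.84 ± 0.07 on the log2 scale and TGFB1I1, a paxillin relative, by 2.44 ± 0.09. FERMT2, which encodes the integrin activator kindlin-2, rose by 2.12 ± 0.09, whereas its epithelial relative FERMT1, the single gene that fell and named here after its value was seen, fell by 0.93. TNS3, a tensin that binds integrin β tails, rose by 1.08 ± 0.08. With all probe sets averaged, NEDD9 gave 1.29 and TNS3 gave 0.58, which was not called.

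Of 17 tetraspanins and other membrane partners of integrins, 2 rose, 2 fell and 13 were not called (23.5% called, median 0.08). Of all genes, 14.2% were called, and 20.1% of those with a group mean at or above the median of all probe sets. In this list 2 genes had both means below that median, so its share was near that of all genes at such signal. CD47, a partner of αvβ3, rose by 1.17 ± 0.06 on the log2 scale and PTGFRN, a partner of tetraspanins, by 0.91 ± 0.07. TSPAN1 fell by 1.44 ± 0.07 and SLC3A2, which encodes the CD98 heavy chain and binds integrin β tails, fell by 1.07 ± 0.07. No test compared any list with the rest of the genes.

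**Figure D4:**
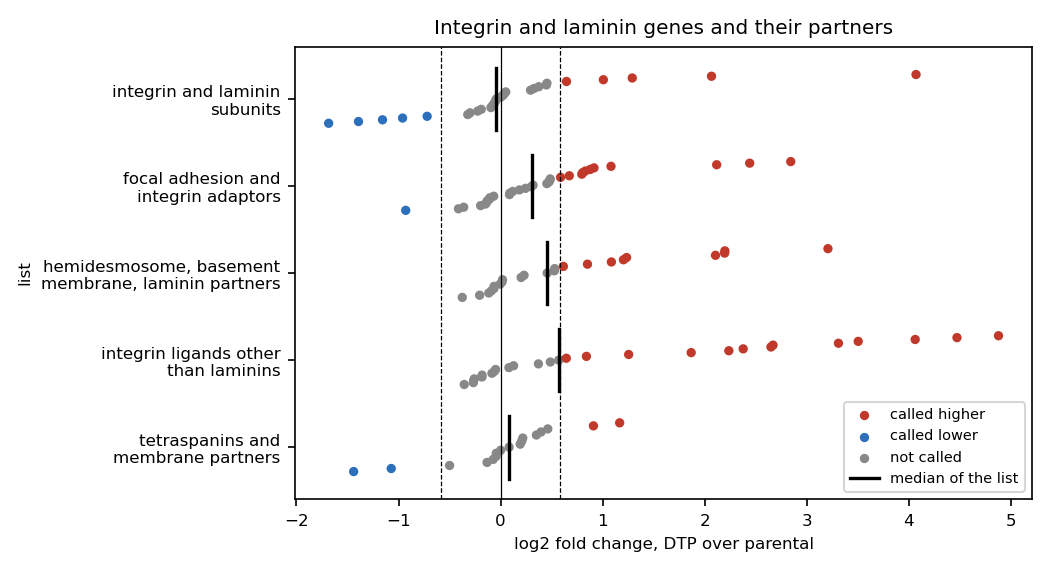
Each point is a gene, placed by its log2 fold change, DTP over parental, on the horizontal axis and by list on the vertical axis, with black bars at list medians and dashed lines at a fold of 1.5. The member genes spread to both sides around a median of −0.04, whereas the ligands hold 13 called genes, all to the right, and a median of 0.57.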

How the data were processed

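RNA from 3 parental and 3 DTP cultures was hybridised to Affymetrix Hgu133plus2 arrays. The deposited values are log2 expression values made by the authors; the submitters' processing notes name RMA and affy, with versions not given in the sources used here, and the study's methods name quantile normalization. The table held 54675 probe sets; 62 controls were left out. The platform annotation gave 41091 probe sets 1 symbol, 1801 several and 11721 none.

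A gene was read from its brightest probe set (mean over 6 arrays) without the suffix _x_at, or else its brightest one with it. DTP and parental arrays were compared using a linear model of group alone in limma 3.58.1 (R 4.3.3) with moderated, two-sided tests and Benjamini-Hochberg adjustment over all 19775 genes or all 54613 probe sets. Errors are limma standard errors. The fit was first tested on simulated data. The number of arrays limits the precision, and no array pair was identical.

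Named were every member gene, up to 4 called genes with the largest change per partner list, and the integrin subunits outside the pattern. FERMT1, DST, PLEC, CD151, COL7A1, COL4A1, COL4A2 and COL4A3 were named after their values were seen. The members, lists and motifs were chosen with earlier results of these data known. Alternatives were a block for the replicate number, omission of single arrays, other centrings and normalization, filters, fold limits, the methods' t-test and other choices of probe set. Promoter windows came from RefSeq GRCh38.p14.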

Additional observations from a re-analysis of the deposited data

How the results depend on the processing

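Over 17 alternatives, ITGA3, ITGA6, ITGB4, ITGAV, ITGB8 and LAMC1 were called in the same direction in all 17, ITGB3 and ITGB5 in 16, and ITGB2 and LAMA4 in 14. ITGA3 and ITGAV had 1 probe set each, so other choices of probe set could not change their values. A fold over 2 left 3 member genes lower, 4 member probe sets higher and 6 lower, 4 focal adhesion genes higher and 0 lower, and 1 membrane partner higher, because the limit removes smaller differences, among them ITGB5, ITGB2, LAMA4 and PTGFRN. With no fold minimum there were 9 member genes higher and 8 lower, 20 member probe sets higher and 22 lower, 19 focal adhesion genes higher and 3 lower, 7 membrane partners higher, 1 hemidesmosome and basement membrane gene lower and 4 ligand genes lower. Averaging all probe sets of a gene left 3 member genes higher, and the cause was not tested.

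The replicate number as a block gave the same counts, 5 member genes higher and 5 lower and 11 member probe sets each way. Deviations of same-numbered arrays correlated at −0.12, 0.02 and −0.06, so the numbers were not taken to pair the arrays. Leaving out 1 array gave 4 to 5 member genes higher and 5 lower. Centring on 52 ribosomal protein genes moved the median of all genes by 0.12 and centring on 18 hybridization spike-in probe sets by 0.15. Higher genes made up 56.9% of all called genes as reported and 70.9% and 74.2% under these centrings. The spike-in centring called ITGB1 (0.60) and LAMB1 (0.60) higher as well and no longer called LAMA4.

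Signs that turned were of uncalled genes near 0, and the cause was not tested. Leaving out 1 array gave log2 fold changes of −0.054 to 0.152 for LAMA5, −0.032 to 0.087 for LAMC3, −0.068 to 0.083 for ITGA7, −0.015 to 0.080 for ITGAX and −0.0025 to 0.082 for ITGB7. Ribosomal centring gave 0.060 for ITGA10, 0.069 for ITGA11, 0.022 for ITGA5, 0.075 for ITGA8, 0.048 for LAMA2 and 0.037 for LAMB4. Spike-in centring gave 0.091 for ITGA10, 0.10 for ITGA11, 0.053 for ITGA5, 0.106 for ITGA8, 0.079 for LAMA2 and 0.068 for LAMB4. Cyclic loess gave 0.018 for ITGA8, and averaging probe sets gave −0.020 for ITGA7, 0.026 for LAMA2 and −0.027 for LAMC3.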
